A study of Mus musculus with 12 samples.

Results

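Medullary (mTEC) and cortical (cTEC) epithelial cells of the mouse thymus were compared in animals whose 2 liver X receptor genes were targeted by Cre, and the cell-type differences that remained, shrank or appeared were described across all genes. The comparison used 3 Cre mTEC libraries (numbers 4 to 6) and 3 Cre cTEC libraries (10 to 12), 6 of the 12 libraries of the series. The other 6 libraries, control mTEC (1 to 3) and control cTEC (7 to 9), served as the reference for the same difference. All mice were C57BL6/J and 2 months of age. Every group carried floxed alleles of LXRalpha (Nr1h3) and LXR beta (Nr1h2); the control samples are called WT in the sample descriptions but carried these alleles too. Cre libraries also carried FoxN1-Cre, in which the recombinase follows a transcription factor gene of thymic epithelium. Both cell types were obtained by flow sorting of digested thymus, and a tag in the labels names each sorted population.

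Liver X receptors are nuclear receptors that sense oxysterols and switch on genes of cholesterol efflux and of lipid synthesis. cTEC support the early steps of T cell development through Notch ligand, interleukin and chemokine signals, and positively select T cells with peptides from a proteasome of their own. mTEC express a wide range of genes of other tissues, many of them through the regulators Aire and Fezf2, and so make the body's antigens visible to developing T cells. RANK and CD40, receptors that feed the noncanonical NF-kappa B pathway, drive mTEC maturation.

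Read counts were obtained for 31332 genes, and 17268 of them were tested. Totals ran from 4804697 to 11159013 counts per library, and a single count corresponded to between 0.0896 and 0.193 counts-per-million (CPM), so that levels near 1 CPM rested on few reads. Over the 2000 genes that varied most, the main axis of variation (88.7% of variance) set mTEC apart from cTEC in both genotypes. The Cre libraries spread more widely on it, from -64.8 to -49.2 in Cre mTEC against -73.3 to -70.1 in control mTEC, and from 50.6 to 76.1 in Cre cTEC against 60.5 to 62.7 in control cTEC. Library 11, a Cre cTEC library with the fewest counts, stood apart: its log CPM correlated with library 10 at 0.967, the lowest of the 12 pairs within a group. The summed level of 18 cTEC identity genes was 15500 CPM in library 11, against 31400 and 24000 CPM in libraries 10 and 12, and that of 28 genes of keratinised cells was 302 CPM, against 81.0 and 81.6 CPM. Counts that moved by over 1.5 times without library 11 are therefore given with and without it.

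The sorted populations carried the markers of their labels. Psmb11, the catalytic subunit of the cortical thymoproteasome, was measured at 994, 370 and 721 CPM in Cre cTEC and at 19.99, 35.5 and 12.7 CPM in Cre mTEC. Aire was measured at 487, 564 and 864 CPM in Cre mTEC and at 2.90, 9.46 and 4.81 CPM in Cre cTEC. Epcam, a surface protein of epithelium, was present in all 6 libraries, at 812 to 957 CPM in Cre mTEC and 525 to 606 CPM in Cre cTEC. The medullary chemokine gene Ccl21a could not be used, since the table held no more than 2 counts for it in any library.

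The targeted receptor genes were still counted in both Cre populations. Nr1h2 was measured at 95.7, 70.8 and 70.2 CPM in Cre mTEC and at 119, 102 and 123 CPM in Cre cTEC, against 109 to 131 and 157 to 191 CPM in the controls. It was lower in Cre mTEC than in Cre cTEC by 0.54 on the log2 scale (SE 0.13, adjusted p = 0.0020), with no overlap between the groups, and the control difference was -0.50. Nr1h3 was measured at 5.83 to 9.15 CPM in Cre mTEC and 7.53 to 9.47 CPM in Cre cTEC, and its difference of -0.14 (SE 0.24) did not pass the test. Counts of whole genes do not show whether the floxed exons were removed, so they check the deletion in part at best. Foxn1, whose regulatory region drives the recombinase, was at 155, 33.9 and 57.5 CPM in Cre mTEC and 73.1, 164 and 94.4 CPM in Cre cTEC; the groups overlapped and the difference of -0.42 (SE 0.36) did not pass.

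Differences are given below as log2 of mTEC over cTEC, so that positive values mean higher in mTEC. Between the Cre libraries, 8573 genes passed the threshold (adjusted p under 0.05 in edgeR's quasi-likelihood test), which is 49.6% of those tested. Of these, 4339 were higher in Cre mTEC (25.1%) and 4234 in Cre cTEC (24.5%). At least 2-fold differences were called for 2955 genes toward mTEC and 1218 toward cTEC. The control comparison called 10231 genes (59.2%), 5052 higher in mTEC and 5179 in cTEC, of which 3248 and 1943 differed by at least 2-fold. In bulk libraries, fewer cells of a type and less RNA per cell cannot be told apart. Scaling by the upper quartile or by library totals moved the median difference over all genes from -0.02 to 0.09 and 0.10, and the share of calls toward mTEC from 50.6% to 59.5% and 60.5%, so small differences should be read relative to that shift. The labels do not say that libraries came from separate animals, so p-values measure the spread between these libraries only.

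The Cre and control comparisons share no library, and most calls occurred in both. In total, 7342 genes were called in both genotypes, 85.6% of the Cre calls and 71.8% of the control calls, and 7277 of them in the same direction. Whether a difference itself changed was tested as the Cre difference minus the control difference, called the change here. The change passed for 692 genes (4.01%), 187 toward mTEC (1.08%) and 505 toward cTEC (2.92%). The split, 27.0% toward mTEC, became 38.5% under upper quartile scaling. Across the 12343 genes with a mean of at least 5 CPM, the Cre difference followed the control difference with Pearson's r of 0.936 and a major-axis slope of 0.918; genes are not independent replicates, so this is a description.

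Every called gene was placed by these 3 tests. A difference is called retained where both genotypes passed in the same direction and the change did not pass; this held for 6961 genes (40.3%), 3626 higher in mTEC and 3335 in cTEC. For 4429 of them, 63.6%, the 95% interval of the change lay within 1 log2 unit either way, and for the others a change of that size was not excluded by these libraries. The difference was smaller in Cre for 268 genes (1.55%) and larger for 48 (0.278%). It appeared in Cre, passing there and not in control with a change that passed, for 114 genes (0.66%), and it was lost for 200 (1.16%). It had opposite directions in the 2 genotypes for 65 genes (0.376%), and the change passed for 62 of these. A further 1117 genes were called in Cre only and 2689 in control only while the change did not pass, so that no difference between the genotypes was shown for them.

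**Figure D1:**
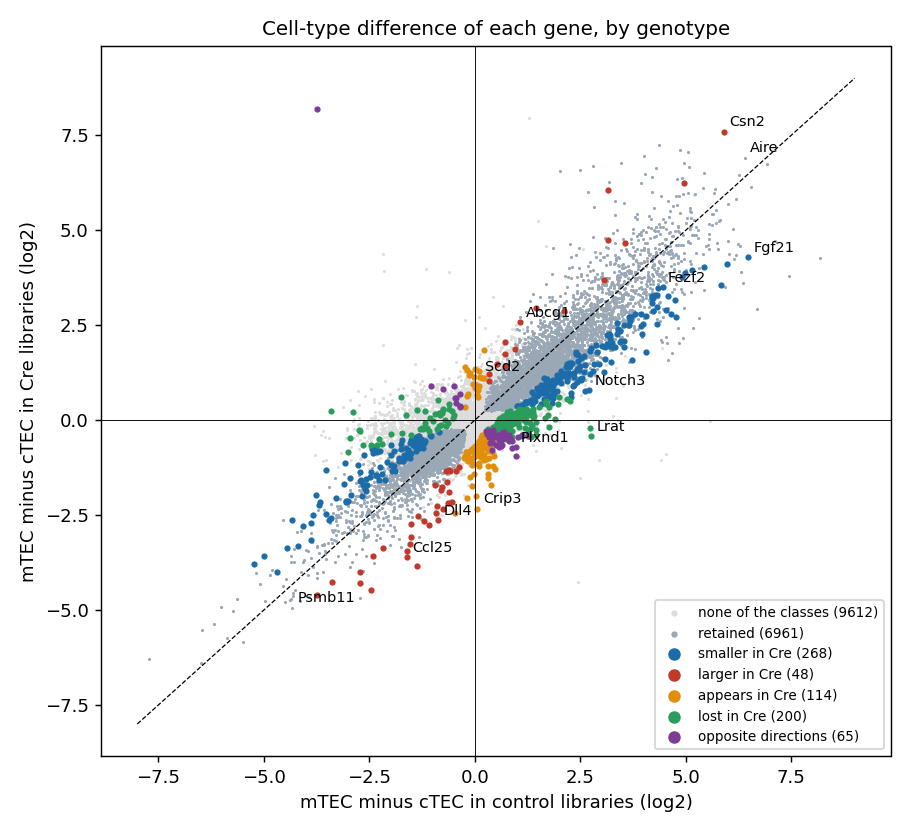
Each point is 1 of 17268 genes; the horizontal axis gives the log2 mTEC minus cTEC difference in control libraries and the vertical axis the same in Cre libraries, coloured by class, with the dashed line marking equal differences. Most points follow the line; Fgf21 and Notch3 lie between it and zero, Ccl25 and Abcg1 lie beyond it, and Crip3 has a difference in Cre only.

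In each class most changes were toward the cortex. Of the 114 genes whose difference appeared, 93 were higher in Cre cTEC; of the 200 that lost theirs, 156 had been higher in control mTEC; and 55 of the 65 with opposite directions went from higher in control mTEC to higher in Cre cTEC. Of the 268 smaller differences, 172 were toward mTEC, and of the 48 larger ones, 32 were toward cTEC. The 505 genes whose change was toward cTEC had a median longest transcript of 6094 bases, against 3261 bases for all genes tested and 3066 bases for the 187 that changed toward mTEC (longest GENCODE M21 transcript, matched by symbol for 98.01% of genes). With offsets that remove each library's trend with transcript length, an alternative chosen after seeing the data, 346 genes changed toward cTEC, 188 toward mTEC, and the difference appeared for 67. Of the libraries left out in turn, library 11 moved these counts most: without it, 562 genes changed toward mTEC and 1082 toward cTEC, with 204 larger, 289 appearing, 560 lost and 203 opposite. The count toward mTEC was also 96, 100, 90, 97, 116 and 107 without library 1, 3, 4, 5, 7 or 9, and that toward cTEC was 275 without library 1 and 304 without library 9.

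Among named genes with a mean of at least 5 CPM and no overlap between the groups, the 10 largest differences ran from Csn2 downward on the medullary side and from Aldh1a1 on the cortical side. Csn2, a milk casein, led the medullary genes at 240, 261 and 370 CPM in Cre mTEC against 0.892, 1.93 and 1.90 CPM in Cre cTEC, a difference of 7.59 (SE 0.26, adjusted p = 8.4e-14). Lyz1, a lysozyme of the gut, differed by 6.504 (SE 0.33), Pgc, a stomach pepsinogen, by 6.45 (SE 0.33) and Cyp26a1, which degrades retinoic acid, by 6.36 (SE 0.32). Hdc, which makes histamine, was at 260, 358 and 493 CPM against 3.68, 8.11 and 3.79 CPM. For 4 genes the levels in Cre cTEC lay near a single count: Crabp1, a retinoic acid binding protein, Ang4, a gut antimicrobial protein, Pyy, a gut peptide hormone, and Ighg1, an immunoglobulin heavy chain, were at 12.8 to 18.6, 14.6 to 20.6, 13.03 to 17.1 and 1.65 to 28.6 CPM in Cre mTEC and at or below 0.386 CPM in Cre cTEC. Ighg1 was low in library 5 alone among the Cre mTEC libraries, at 1.65 CPM against 28.6 and 22.2 CPM. Aire, described below, completes these 10 genes.

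On the cortical side Aldh1a1, which makes retinoic acid, led at 82.8, 93.0 and 112 CPM in Cre cTEC against 0.813 to 1.5 CPM in Cre mTEC (-6.40, SE 0.27, adjusted p = 5.9e-13). Il33, an alarmin cytokine, was at 394, 396 and 578 CPM against 7.05 to 9.08 CPM (-5.83, SE 0.21). Serpinf1, which encodes a secreted serpin, Prss23, a secreted protease, and Scn1a, a sodium channel, differed by -5.72, -5.53 and -5.37. Ccrl1, an atypical receptor that scavenges Ccl25 and related chemokines, differed by -5.03 (SE 0.17), at 438 to 502 CPM against 13.8 to 14.99 CPM. Psmb11 and Prss16, described below, Adhfe1 (-4.78), an alcohol dehydrogenase family member, and Col8a2 (-4.77), a collagen chain, complete the cortical 10. Apart from Csn2 and Hdc, the genes of these 2 paragraphs were retained.

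The starts of these genes differed in sequence. Of the 17268 genes tested, 13091 matched the RefSeq promoter table (GRCm38.p6), which gives 250 bases before each gene's start. The motif TATAAA on the gene's strand, lying wholly between 40 and 20 bases before the start, is described because its share differed along the size of the medullary difference. It was found in 2.02% of all matched promoters (264 of 13091), in 4.57% of those of genes higher in Cre mTEC, in 6.54% at 2-fold or more and in 18.1% at 16-fold or more (41 of 226; 95% Wilson interval 13.7 to 23.7%, counting error only). It was found in 0.898% of promoters of genes higher in Cre cTEC (30 of 3342; 0.63 to 1.28%). The median ratio of observed to expected CpG pairs over the 250 bases ran the other way, at 0.673 for all, 0.534, 0.377 and 0.219 along the medullary sets and 0.727 for genes higher in Cre cTEC. Promoters are not independent, and the shares are a description with no test. For genes whose difference changed in Cre the motif share was 1.55% (8 of 515) and the CpG median 0.696. The direct repeat of AGGTCA with a gap of 4 bases, the form bound by LXR with its partner RXR, was in none of the 13091 promoters on either strand, which says only that these letters are not in these windows.

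The 60 bases before the start of 5 medullary and 2 cortical genes are shown as examples, 5′ to 3′ on the gene's strand, chosen because the medullary genes carry the motif, which most medullary genes do not; the motif is in capitals where it lies in the window.
Aire, chr10:78043611-78043670, minus strand: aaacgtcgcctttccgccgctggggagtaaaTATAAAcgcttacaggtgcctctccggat
Pgc, chr17:47726782-47726841, plus strand: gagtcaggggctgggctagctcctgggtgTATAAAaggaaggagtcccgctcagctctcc
Crp, chr1:172697996-172698055, plus strand: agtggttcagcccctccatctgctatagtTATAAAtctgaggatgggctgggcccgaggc
Krtdap, chr7:30787845-30787904, plus strand: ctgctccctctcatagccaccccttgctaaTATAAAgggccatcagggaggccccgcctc
Fgf21, chr7:45615491-45615550, minus strand: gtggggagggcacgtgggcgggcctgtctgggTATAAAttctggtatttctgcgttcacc
Ccrl1, chr9:104126644-104126703, minus strand: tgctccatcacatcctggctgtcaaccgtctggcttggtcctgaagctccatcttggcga
Psmb11, chr14:54625250-54625309, plus strand: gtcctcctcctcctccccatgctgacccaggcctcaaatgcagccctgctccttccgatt
The motif begins 29 bases before the start in Aire, 31 in Pgc and Crp, 30 in Krtdap and 28 in Fgf21. Most GENCODE M21 transcripts of Aire start downstream of the start that RefSeq lists first, so its position holds for the RefSeq start only. The CpG ratio of Aire is 0.625 over 250 bases, above that of both cortical genes. The motif is absent from the window in Ccrl1 and Psmb11, which like Crp and Krtdap are also poor in CpG (0.392 and 0.199 over 250 bases).

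**Figure D2:**
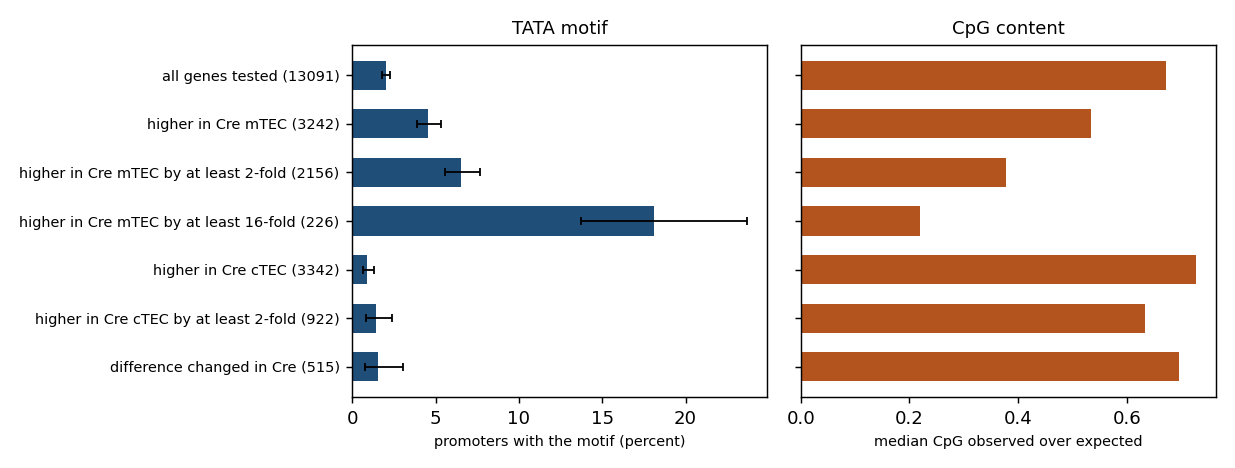
Bars give, for each gene set (number of matched promoters in brackets), the percent of promoters with TATAAA in the window with its 95% Wilson interval (left) and the median ratio of observed to expected CpG (right). The motif share is 18.1% at 16-fold or more toward Cre mTEC and 0.898% among genes higher in Cre cTEC, while the CpG ratio is 0.219 and 0.727.

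cTEC identity genes stayed cortical in the Cre libraries, and the gap of 5 of them was wider than in control. Of 18 members, 16 were higher in Cre cTEC and none in Cre mTEC, the same counts as in control; the median difference was -3.06 in Cre and -2.11 in control, against -0.02 and -0.05 over all genes tested. Shares over all genes tested were 24.5% higher in Cre cTEC and 30.0% higher in control cTEC, with 2.92% changed toward cTEC. The list was chosen with earlier results of these data known. Foxn1 and Il7, a cytokine of T cell precursors, did not pass in either genotype. Psmb11 differed by -4.94 (SE 0.35) and the serine protease Prss16, which trims peptides for MHC class II, by -4.76 (SE 0.29), at 5471, 1984 and 3671 CPM in Cre cTEC against 102 to 168 CPM in Cre mTEC. For Psmb11, Prss16, Ccl25, Dll4, Tbata, Ly75 and Kitl, library 11 had the lowest of the 3 Cre cTEC levels.

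The 5 wider gaps were those of 3 ligands, 1 surface receptor and Tbata. Ccl25, the chemokine that draws precursors into the cortex, was at 1172, 509 and 900 CPM in Cre cTEC and at 89.1, 50.9 and 72.4 CPM in Cre mTEC, a difference of -3.60 against -1.61 in control (change -1.997, SE 0.33, adjusted p = 0.0022). Both sides moved apart: the Cre minus control value was 0.74 in cTEC and -1.26 in mTEC, values that share libraries with the change. Dll4, the Notch ligand that commits precursors to the T lineage, was at 157, 64.1 and 118 CPM against 16.2, 24.3 and 14.5 CPM (-2.64 against -0.87; change -1.77, SE 0.39, adjusted p = 0.014). Tbata differed by -2.77 against -1.08 (change -1.69, adjusted p = 0.0058). Ly75, an endocytic receptor (CD205), differed by -3.36 against -2.17 (change -1.19, adjusted p = 0.026), and Kitl, stem cell factor, by -4.28 against -3.38 (change -0.90, adjusted p = 0.038). The change of Ly75 lost its call without library 1, 4, 7 or 9 (-1.44 to -0.81 with any 1 library left out) and that of Kitl without library 1, 2, 5, 6, 7, 9 or 10 (-1.16 to -0.74). Both were lost with length offsets, and those of Dll4 and Ly75 in a robust fit. Without library 11, 9 members had a change toward cTEC.

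**Figure D3:**
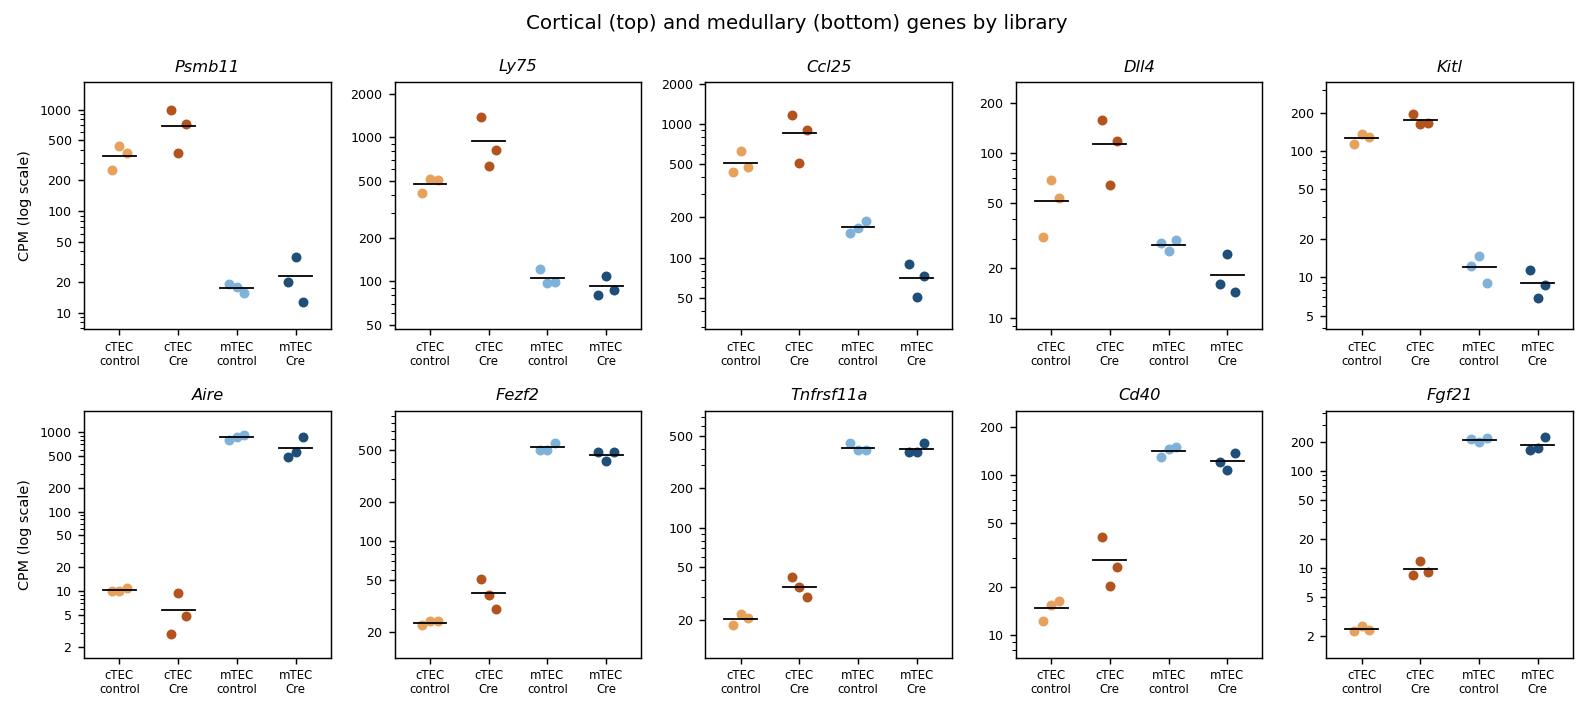
Points are single libraries and bars are means of 3 libraries; the vertical axis is CPM on a log scale. Psmb11, Ly75, Ccl25, Dll4 and Kitl (top) are higher in both cTEC groups and Aire, Fezf2, Tnfrsf11a, Cd40 and Fgf21 (bottom) in both mTEC groups, with Fgf21 at 8.48 to 11.8 CPM in Cre cTEC against 2.24 to 2.51 CPM in control cTEC.

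Mature mTEC genes stayed medullary: 19 of 20 were higher in Cre mTEC, all 20 in control mTEC, and the median difference was 3.48 in Cre and 3.90 in control. Among all genes tested, 25.1% were higher in Cre mTEC and 29.3% in control mTEC. Aire, which drives expression of tissue antigens, differed by 6.91 (SE 0.29) in Cre and 6.39 in control. Cd80, a costimulatory ligand, was at 28.02, 26.1 and 42.1 CPM in Cre mTEC against 1.00, 3.47 and 0.583 CPM in Cre cTEC (4.41, SE 0.32), and 4.39 in control. Spib, a transcription factor of mature mTEC, and Ctss, a lysosomal protease, differed by 4.12 and 3.20.

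Of these, 5 members had a smaller or lost gap, and in each the Cre cTEC level was above that of control cTEC. A change toward cTEC was called for 2.92% of all genes tested. Fezf2, a second regulator of tissue antigens, was at 477, 406 and 476 CPM in Cre mTEC and at 51.1, 38.6 and 30.2 CPM in Cre cTEC, against 22.6 to 24.5 CPM in control cTEC (3.49 against 4.45; change -0.96, SE 0.21, adjusted p = 0.014). Tnfrsf11a, which encodes RANK, was at 380, 377 and 440 CPM against 42.3, 35.3 and 29.6 CPM, with 18.1 to 21.9 CPM in control cTEC (change -0.86, SE 0.19, adjusted p = 0.013). Cd40 differed by 2.03 against 3.26 (change -1.23, adjusted p = 0.0094). For these 3 genes the Cre minus control value was 0.76, 0.83 and 1.02 in cTEC and -0.20, -0.03 and -0.21 in mTEC. Fgf21, a hormone of the stress response that mTEC express, differed by 4.28 against 6.48 (change -2.20, SE 0.26, adjusted p = 0.00036). Irf8, a transcription factor shared with myeloid cells, had no difference that passed in Cre (0.30, SE 0.14) against 1.37 in control (change -1.07, adjusted p = 0.0061). Hdc went the other way, at 6.23 against 4.95 (change 1.28, adjusted p = 0.043), but this call was lost without any 1 of libraries 1, 2, 3, 5, 6, 7, 8, 9, 10 or 12 (1.01 to 1.65) and under each other scaling.

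Changes toward cTEC were called for 2 receptors, 2 adaptors or kinases, 2 transcription factors and 1 inhibitor around NF-kappa B. Of 24 genes of the RANK, CD40 and NF-kappa B list, 14 were higher in Cre mTEC and 3 in Cre cTEC, against 19 and 3 in control, and 7 had a change, all toward cTEC. Over all genes tested these shares were 25.1% and 24.5% in Cre and 29.3% and 30.0% in control, and 2.92% changed toward cTEC. Map3k14, the kinase NIK of the noncanonical pathway, was at 77.1, 90.0 and 92.8 CPM in Cre mTEC and 88.6, 62.1 and 68.5 CPM in Cre cTEC; the groups overlapped, and the difference of 0.24 did not pass, against 1.35 in control (change -1.11, SE 0.18, adjusted p = 0.0020). Traf3, which holds NIK down, differed by -0.24, which did not pass, against 0.68 (change -0.92, adjusted p = 0.0057). Nfkb2, the precursor of p52, differed by 1.25 against 2.06 (change -0.82, adjusted p = 0.013), a call lost without library 9 (-0.94 to -0.68 with 1 library left out). Cd40 and Tnfrsf11a are also on this list, and the remaining members with a change were Rel and Tnfaip3, an inhibitor. Tnfrsf11b, the decoy receptor for the RANK ligand, stayed medullary (4.11 in Cre, 3.21 in control), and Nfkb1 stayed cortical (-1.996 and -1.99). Without library 11, 11 members had a change toward cTEC and 5 were higher in Cre cTEC.

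Tuft cell, secretory antigen and peptide hormone genes were mostly higher in mTEC in both genotypes. Immature mTEC genes were not: of 11 tested, 5 were higher in Cre mTEC and 5 in Cre cTEC, against 4 and 4 in control. Those higher in Cre mTEC were all keratins or integrins, and 4 of the 5 higher in Cre cTEC were secreted or other genes. Changes were called for 3 of the 11, all toward mTEC (5 without library 11), with Krt14 and Dcn, given below, among them. For Dcn the change was a narrower cortical gap. Over all genes tested, 25.1% were higher in Cre mTEC and 24.5% in Cre cTEC, and 4.01% had a change. Of 23 tuft cell genes, which mark chemosensory cells of the medulla, 20 were higher in Cre mTEC and 2 in Cre cTEC (1 with upper quartile or library total scaling), against 20 and 1 in control. The taste G protein subunits Gnat3 and Gnb3 differed by 1.95 and 2.09, Dclk1, a tuft cell kinase, by 1.67, and Alox5, which begins leukotriene synthesis, by 1.38. Itpr3, the calcium channel below taste receptors, was the only tuft cell gene with a change: it was at 31.2, 30.6 and 41.9 CPM in Cre mTEC and 57.3, 44.2 and 37.9 CPM in Cre cTEC (-0.43, adjusted p = 0.036), and it was higher in control mTEC (1.27; change -1.70, SE 0.24, adjusted p = 0.00097). Secretory tissue antigens were higher in Cre mTEC for 29 of 41 and in Cre cTEC for 1, against 29 and 2 in control. Apoa4 and Crp, made by gut and liver, differed by 5.18 and 5.04. Csn2 was the 1 secretory antigen with a change when library 11 was kept (7.59 against 5.90; 1.70, SE 0.41, adjusted p = 0.021), lost without library 8, 9 or 10 (1.34 to 1.93 with 1 library left out) and with voom weights. Without library 11, 2 secretory antigens changed toward mTEC and 2 toward cTEC. Of 33 peptide hormone genes, 26 were higher in Cre mTEC, 28 in control mTEC. Pdyn and Calca, neuropeptide precursors, differed by 5.45 and 4.97, while Tac1, the precursor of substance P, differed by 1.52 against 3.23 (change -1.72, adjusted p = 0.013). Sst, the hormone somatostatin, had a change toward mTEC (adjusted p = 0.036), at 14.4, 7.20 and 10.6 CPM in Cre mTEC and at or near 0 in Cre cTEC, a call lost without any 1 of libraries 1, 2, 3, 4, 8, 9, 10 or 12. These were the 2 changes among peptide hormones (4 toward mTEC and 2 toward cTEC without library 11).

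Of 27 genes of keratinised cells (corneocytes), 19 were higher in Cre mTEC and 26 in control mTEC, and library 11 set the Cre count. All genes tested were at 25.1% and 29.3%. Klk6, a kallikrein protease of skin, was at 8.18, 7.20 and 7.45 CPM in Cre mTEC and at 0.446, 45.1 and 0.291 CPM in Cre cTEC, with the high value in library 11. Cdsn, an adhesion protein of cornified skin, was at 4.24, 3.6 and 5.01 CPM and at 0.446, 27.98 and 0.437 CPM. Their differences of -0.90 (SE 0.87) and -1.05 (SE 0.84) did not pass, and without library 11 they were 4.30 and 3.26, with 25 members higher in Cre mTEC. Lor, the cornified envelope protein loricrin, had a smaller gap in Cre with similar levels in library 11 and its group: it was at 7.42, 7.65 and 7.86 CPM in Cre mTEC and 2.68, 2.12 and 2.77 CPM in Cre cTEC, against 13.2 to 19.5 and 0.711 to 1.55 CPM in control (1.58 against 3.73; change -2.16, SE 0.40, adjusted p = 0.0051). Krtdap, a keratinocyte protein, was retained (2.31 and 2.22).

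Among keratins, 21 of 27 were higher in Cre mTEC and 4 in Cre cTEC, against 20 and 3 in control. The shares over all genes tested were 25.1% and 24.5% in Cre and 29.3% and 30.0% in control. Changes were called for 2 keratins toward mTEC and 1 toward cTEC (4 and 3 without library 11). Such changes were called for 1.08% and 2.92% of all genes tested. Krt10 was the 1 toward cTEC, a call lost without library 3, 5 or 7. Krt14, a keratin of basal epithelium, had a wider gap in Cre, at 1588, 1532 and 1242 CPM in Cre mTEC and 437, 442 and 427 CPM in Cre cTEC, against 862 to 1042 CPM in control cTEC (1.74 against 0.72; change 1.02, SE 0.18, adjusted p = 0.0031). Krt5, its partner, differed by 1.93 (SE 0.14) against 1.28 and was retained. Krt7 had a difference in Cre (0.89, SE 0.13) and none that passed in control (0.09; change 0.80, adjusted p = 0.016), a call lost without library 1 (0.65 to 0.91 with 1 library left out). All 30 mitosis genes were higher in mTEC in both genotypes, none had a change, and the median difference was 1.41 in Cre and 1.31 in control. Cdk1, the kinase that starts mitosis, was at 31.8, 37.0 and 49.7 CPM in Cre mTEC and 7.14, 7.91 and 8.60 CPM in Cre cTEC (2.33, SE 0.17). Of 21 replication genes, 15 were higher in Cre mTEC and none in Cre cTEC, and none had a change.

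**Figure D4:**
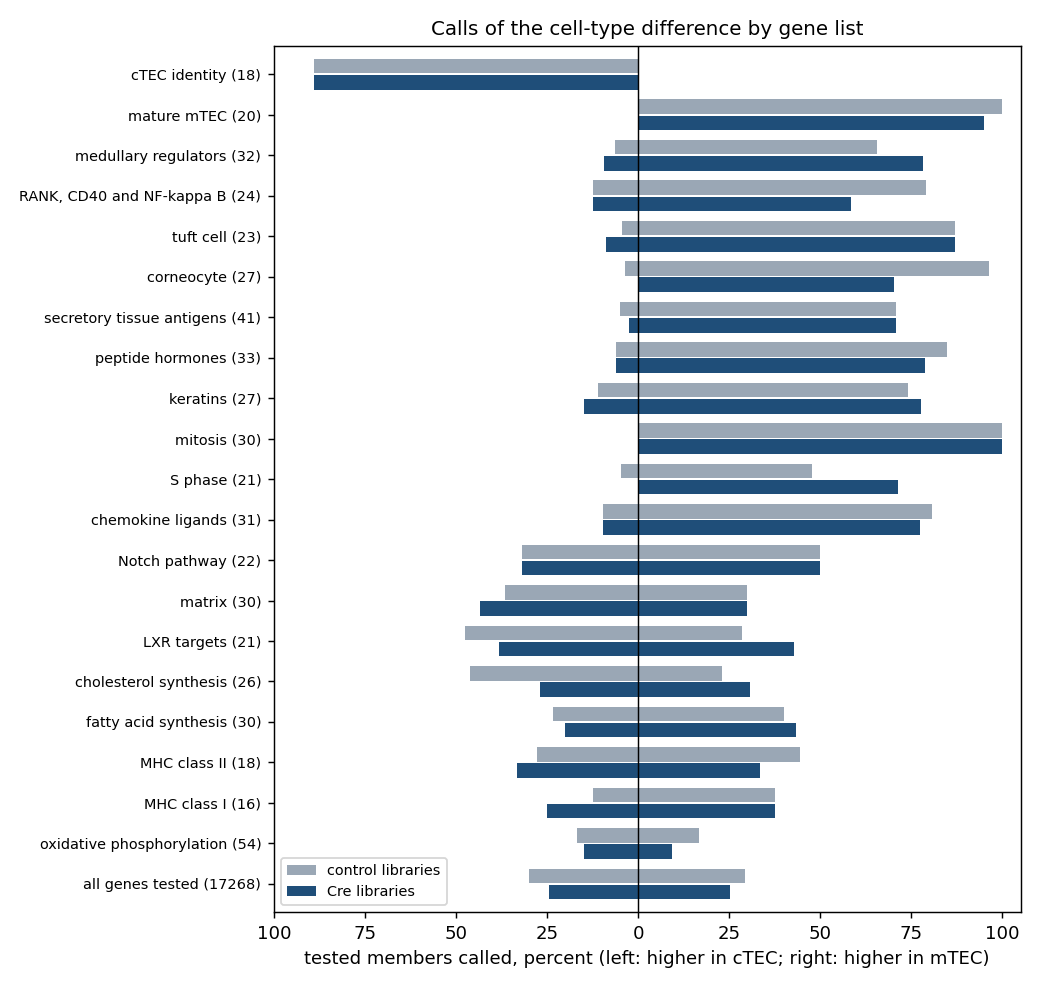
Bars give the percent of tested members of each list (number in brackets) called higher in mTEC (right of zero) or in cTEC (left of zero), in control libraries (grey) and Cre libraries (blue). cTEC identity, mature mTEC and mitosis lists sit near 100 percent on 1 side in both genotypes, and corneocyte genes fall from 26 to 19 calls of 27 toward mTEC; all genes tested are at 25.1 and 24.5 percent in Cre.

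LXR target genes were split between the 2 Cre populations, and the changes that passed were toward mTEC. Of 21 members, 9 were higher in Cre mTEC and 8 in Cre cTEC, against 6 and 10 in control, and 5 had a change (without library 11, 5 toward mTEC and 2 toward cTEC). For all genes tested the shares were 25.1% and 24.5% in Cre, and 1.08% had a change toward mTEC. Scd2, a desaturase that makes monounsaturated fatty acids, was at 59.5, 65.7 and 81.0 CPM in Cre mTEC and 30.5, 30.3 and 32.9 CPM in Cre cTEC, with no overlap (1.14, SE 0.16, adjusted p = 7.9e-06). In control the levels were 531 to 592 CPM in mTEC and 394 to 613 CPM in cTEC, and the difference of 0.11 did not pass (change 1.03, SE 0.21, adjusted p = 0.0097). Abcg1, a cholesterol efflux transporter, was at 22.4, 26.1 and 29.8 CPM in Cre mTEC and 3.57, 5.98 and 4.08 CPM in Cre cTEC, against 150 to 157 and 62.5 to 82.6 CPM in control (2.57 against 1.08; change 1.49, SE 0.23, adjusted p = 0.0015). Both genes were lower in Cre in each cell type, by -3.05 and -2.56 in mTEC and by -4.07 and -4.05 in cTEC, values that share libraries with the change.

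Other members of the list kept, lost or reversed their gap. Abca1, the transporter that loads high-density lipoprotein, was retained at 0.69 (SE 0.17) against 0.50, with 29.7, 33.5 and 43.0 CPM in Cre mTEC and 21.8, 28.2 and 16.5 CPM in Cre cTEC. Mid1ip1, which activates fatty acid synthesis, was higher in Cre mTEC (0.89, SE 0.20) and in control cTEC (-0.49; change 1.38, adjusted p = 0.0055). Srebf1, the transcription factor of lipid synthesis, had a smaller cortical gap, at 77.5, 88.2 and 75.8 CPM against 138, 103 and 128 CPM (-0.62 against -1.75; change 1.13, SE 0.27, adjusted p = 0.021), a call lost without library 1, 2, 5 or 9 (0.85 to 1.38 with 1 library left out) and in a robust fit. Acsl3, which activates fatty acids, was at 99.2, 97.3 and 104 CPM against 92.7, 97.5 and 82.3 CPM (0.14, which did not pass, against -0.82; change 0.97, adjusted p = 0.0029). Apoe and Pltp, apolipoprotein E and a phospholipid carrier, were retained on the cortical side at -1.22 and -2.11, and Scd1, a sister of Scd2, on the medullary side at 3.44.

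Changes were called for 3 cholesterol synthesis and 8 fatty acid synthesis genes, where 4.01% of all genes tested had one. Over all genes tested, 25.1% were higher in Cre mTEC and 24.5% in Cre cTEC. Of 26 cholesterol synthesis genes, 8 were higher in Cre mTEC and 7 in Cre cTEC (4 with upper quartile or library total scaling), against 6 and 12 in control, and the 3 with a change moved toward mTEC (1 more moved toward cTEC without library 11). Fdft1, which makes squalene, was at 15.6, 16.4 and 16.8 CPM in Cre mTEC and 13.9, 8.88 and 10.1 CPM in Cre cTEC, with no overlap, and it lost its cortical gap by the test (0.54, which did not pass, against -0.87; change 1.41, adjusted p = 0.013). Of 30 fatty acid synthesis genes, 13 were higher in Cre mTEC and 6 in Cre cTEC, against 12 and 7 in control, with 5 changes toward mTEC and 3 toward cTEC (5 without library 11, 1 with length offsets). Fads1, a desaturase of polyunsaturated fatty acids, was at 28.9, 38.5 and 33.9 CPM against 12.8, 16.2 and 17.8 CPM in Cre (1.12, SE 0.16) and had no difference that passed in control (-0.02; change 1.14, adjusted p = 0.0062). Dgat2, which makes triglyceride, was retained (2.52 and 2.84).

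**Figure D5:**
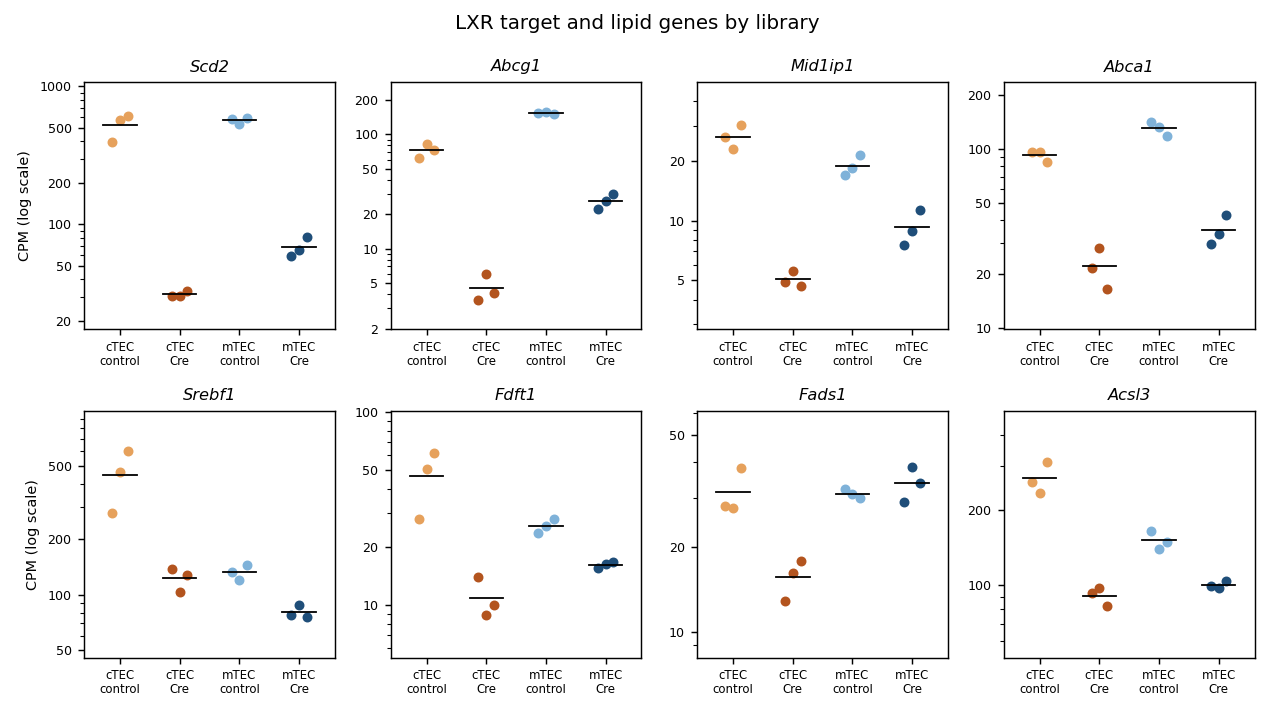
Points are single libraries and bars are means of 3 libraries; the vertical axis is CPM on a log scale. Scd2, Abcg1, Mid1ip1, Abca1 and Fdft1 have their lowest mean in Cre cTEC, Srebf1 keeps a cortical excess in both genotypes, Fads1 is low in Cre cTEC alone, and Acsl3 is at 82.3 to 104 CPM in both Cre groups.

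In the Notch pathway 3 of 4 receptors had a smaller medullary gap in Cre, and 3 of 5 ligands had a change, in both directions. Of 22 members, 11 were higher in Cre mTEC and 7 in Cre cTEC, the same counts as in control, with 6 changes toward cTEC and 1 toward mTEC. Over all genes tested, 25.1% and 24.5% were called in Cre, and 2.92% and 1.08% had such changes. Notch3 was at 49.98, 47.2 and 44.2 CPM in Cre mTEC and 25.9, 32.0 and 24.3 CPM in Cre cTEC, against 4.48 to 9.53 CPM in control cTEC (0.79 against 2.70; change -1.91, SE 0.26, adjusted p = 0.00097). Notch2 differed by 0.65 against 1.71 (change -1.06, adjusted p = 0.0077), and Notch1 by 0.46 against 1.21 (change -0.75, adjusted p = 0.010). Of the ligands, Dll4 had a wider cortical gap, as given above, and Dll1 a narrower one (-1.41 against -2.21; change 0.80, adjusted p = 0.0099). Dll3 had a narrower medullary gap (3.17 against 4.74; change -1.57, adjusted p = 0.010), lost without library 9 (-1.80 to -1.31 with 1 library left out). Nrarp, a target of Notch, and Mfng, which modifies Notch receptors, were retained at 1.75 and 3.02.

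Matrix genes changed in both directions: 9 of 30 were higher in Cre mTEC and 13 in Cre cTEC, against 9 and 11 in control, with 2 changes toward mTEC and 5 toward cTEC (6 and 5 without library 11). All genes tested were at 25.1% and 24.5% in Cre, with changes for 1.08% and 2.92%. Fbn1, the microfibril protein fibrillin, was at 109, 121 and 111 CPM in Cre mTEC and 71.8, 90.7 and 60.2 CPM in Cre cTEC, against 28.6 to 31.1 CPM in control cTEC (0.62 against 2.27; change -1.65, SE 0.20, adjusted p = 0.00036). Dcn, a collagen-binding proteoglycan, was at 147 to 208 CPM in Cre mTEC and at 1013, 1232 and 1357 CPM in Cre cTEC, against 2317 to 2727 CPM in control cTEC (-2.78 against -4.08; change 1.29, SE 0.21, adjusted p = 0.0022). Col3a1, a fibrillar collagen, had a wider cortical gap (-2.33 against -0.75; change -1.58, adjusted p = 0.0074), lost in a robust fit. Col1a1 lost its medullary gap (0.43, which did not pass, against 1.98; change -1.55, adjusted p = 0.0074). The summed level of 10 fibroblast genes, Col1a1 among them, was 74.2 to 100 CPM in Cre mTEC and 58.7 to 112 CPM in Cre cTEC. In control the sum was 104 to 113 CPM in mTEC and 109 to 128 CPM in cTEC. Of 9 tested, 2 were higher in Cre mTEC and 4 in Cre cTEC (4 and 2 without library 11). The part of fibroblasts in these values was not tested.

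Antigen presentation genes were called in both directions. Of all genes tested, 25.1% were higher in Cre mTEC and 24.5% in Cre cTEC, and 4.01% had a change. Of 18 MHC class II genes, 6 were higher in Cre mTEC and 6 in Cre cTEC, against 8 and 5 in control, and 2 had a change, both toward cTEC (6 without library 11). H2-Aa, a class II chain, was at 3143, 2810 and 3040 CPM in Cre mTEC and 2876, 2182 and 2881 CPM in Cre cTEC, and its difference of 0.18 (SE 0.14) did not pass. Cd74, the chaperone of class II, gave -0.08 (SE 0.15), which did not pass either. Of 16 MHC class I genes, 6 were higher in Cre mTEC and 4 in Cre cTEC, against 6 and 2 in control. Nlrc5, the activator of class I genes, had a smaller medullary gap (0.98 against 2.04; change -1.05, SE 0.18, adjusted p = 0.0026), the 1 change among 16 class I genes (3 without library 11 and 2 with length offsets). Of 31 chemokine ligands, 24 were higher in Cre mTEC and 3 in Cre cTEC, against 25 and 3 in control, with 5 changes, all toward cTEC, Ccl25 among them (3 with library total scaling). Cxcl10, a ligand of activated T cells, was at 356, 260 and 388 CPM in Cre mTEC and 72.1, 48.8 and 76.4 CPM in Cre cTEC, against 35.0 to 40.03 CPM in control cTEC (2.34 against 3.44; change -1.10, adjusted p = 0.0081). Neither the 54 oxidative phosphorylation genes nor the 36 ribosomal protein genes had a change that passed; in the first list 5 were higher in Cre mTEC and 8 in Cre cTEC, a split that turned to 13 and 4 with upper quartile scaling and went to 3 and 17 without library 11 and 2 and 15 with length offsets, and in the second 21 and 1.

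Genes of lists not described above (Lrat and Trib3) and genes outside the lists (Crip3 and Plxnd1) changed as well. Lrat had the 1 change among 16 retinoid handling genes. Of 25 stress genes, 3 changed toward cTEC, Trib3 among them, and 1 toward mTEC (5 and 1 without library 11). A change was called for 4.01% of all genes tested, 2.92% toward cTEC and 1.08% toward mTEC. Crip3, a LIM domain protein, had the largest change among genes whose difference appeared in Cre: it was at 61.2, 46.4 and 48.2 CPM in Cre mTEC and 369, 159 and 254 CPM in Cre cTEC (-2.33, SE 0.23), and at 128 to 149 and 100.7 to 162 CPM in control, where 0.06 did not pass (change -2.39, SE 0.31, adjusted p = 0.00065). Plxnd1, a semaphorin receptor, reversed, at 27.7, 31.6 and 32.4 CPM in Cre mTEC and 52.8, 50.2 and 47.2 CPM in Cre cTEC, against 39.3 to 49.6 and 22.1 to 23.2 CPM in control (-0.71 against 0.97; change -1.68, SE 0.17, adjusted p = 9.7e-05). Lrat, which stores retinol as esters, lost its medullary gap (-0.42, which did not pass, against 2.75; change -3.17, SE 0.60, adjusted p = 0.0058), with 9.04, 8.30 and 34.7 CPM in Cre cTEC and a call lost in a robust fit. Trib3, a stress-response pseudokinase, was level in Cre at 7.88, 6.15 and 7.86 against 8.93, 7.33 and 8.60 CPM (-0.19, which did not pass, against 1.75; change -1.94, SE 0.29, adjusted p = 0.0012).

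Summed markers of macrophages and dendritic cells and of thymocytes did not overlap between the sorted populations in either genotype. Those of B cells overlapped in control and those of erythroid cells in Cre. As a reference, 25.1% of all genes tested were higher in Cre mTEC and 24.5% in Cre cTEC. Summed over 18 macrophage and dendritic cell genes, the level was 306 to 441 CPM in Cre mTEC and 79.7 to 103 CPM in Cre cTEC, against 375 to 463 and 80.2 to 106 CPM in control; 8 of 16 tested were higher in Cre mTEC and 1 in Cre cTEC. Lyz2, a lysozyme of myeloid cells, gave 169, 182 and 290 CPM against 22.2, 19.1 and 21.3 CPM, and Emr1, a defining macrophage marker, 6.97, 7.80 and 11.0 CPM against 1.12, 1.74 and 1.02 CPM. Summed over 8 B cell genes, the level was 47.1 to 273 CPM in Cre mTEC, highest in library 4, and 28.2 to 32.5 CPM in Cre cTEC. In control the B cell sums were 48.7 to 116 CPM in mTEC and 22.4 to 73.8 CPM in cTEC. These values stand beside that of Ighg1. Summed over 21 thymocyte genes, the level was 273 to 359 CPM in Cre mTEC and 372 to 442 CPM in Cre cTEC, with 10 of 20 tested higher in Cre cTEC (6 with library total scaling) and 1 in Cre mTEC. Their part in the differences above was not tested.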

How the data were processed

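RNA was sequenced from 12 sorted mouse libraries, 3 in each of 4 groups, prepared with the SMARTer low-input kit after NucleoSpin XS extraction, per the labels' protocols. The deposited table by the authors holds unnormalized counts of reads in whole numbers for 31332 genes. Alignment with STAR, counting with HTSeq, the use of edgeR and the build mm9 are named in the submitters' processing notes; for versions, annotation, strand and multi-mapping the settings were not given in the sources used here. Reads of overlapping or antisense genes and of near-identical copies, immunoglobulin genes among them, may therefore be mixed.

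From the counts, genes with enough reads in a group were kept (filterByExpr, 17268 genes), scaled by TMM and fitted with edgeR 4.0.16 in R 4.3.3 (quasi-likelihood, 1 model of 4 groups, 8 residual degrees of freedom). The fit of all 12 libraries gave the Cre difference, the control difference and the change between them, with Benjamini-Hochberg adjustment over all genes and a threshold of 0.05. CPM values are TMM-scaled counts-per-million of the library total. Pairs of libraries in each group differed by more than sampling noise. Only the test of the change was tried on simulated data, with changes placed in Cre cTEC alone. The simulated spread came from this same fit, so the trial cannot speak to a library that stands apart. Wilson intervals (95%) and the value of 1 count cover counting error only. Promoters came from RefSeq (GRCm38.p6, first listed start of each gene), a build other than that of the counts, and were joined by symbol only. Transcript lengths came from GENCODE M21.

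The members and the 36 gene lists (902 of 909 entries in the table, 869 tested) were chosen with earlier results of these data known. Named genes were fixed markers and receptors, and as many as 4 per list by p in either test. Added were up to 10 genes with the largest Cre difference in each direction, with no overlap of the groups. Up to 8 genes with the largest change in each class were also named, overlap allowed. Both of the latter sets needed a mean of at least 5 CPM and a proper gene name. Not all of the named genes are printed. Cdsn, Klk6 and the changes of Hdc and Notch1 were named after their values were seen. Alternatives were other scalings, filters, tools (DESeq2 1.42.0, limma 3.58.1 voom, a robust edgeR fit), only the 6 libraries compared, each library left out, and, chosen after seeing the data, gene length offsets. The result of 1 gene is not reported here.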

Additional observations from a re-analysis of the deposited data

Results flagged for a closer look

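For 43 of the genes named above, the mTEC minus cTEC difference itself was not the same in the 2 genotypes by the test of the change (adjusted p under 0.05 in edgeR's quasi-likelihood test, 3 libraries a group). Rel, Tnfaip3 and Krt10, named above without values, also had a change and are not among the 43. The values that follow are the Cre difference minus the control difference on the log2 scale, positive where the gap moved toward mTEC. Among cTEC identity genes it was -1.997 for Ccl25, -1.77 for Dll4, -1.69 for Tbata, -1.19 for Ly75 and -0.90 for Kitl. Among mature mTEC genes it was -2.20 for Fgf21, -1.23 for Cd40, -1.07 for Irf8, -0.96 for Fezf2, -0.86 for Tnfrsf11a and 1.28 for Hdc. Among NF-kappa B pathway genes it was -1.11 for Map3k14, -0.92 for Traf3 and -0.82 for Nfkb2. Among tissue antigen, tuft cell and keratinised-cell genes it was -2.16 for Lor, -1.72 for Tac1, -1.70 for Itpr3 and 1.70 for Csn2. Among keratins it was 1.02 for Krt14 and 0.80 for Krt7. Among LXR target and lipid genes it was 1.49 for Abcg1, 1.41 for Fdft1, 1.38 for Mid1ip1, 1.14 for Fads1, 1.13 for Srebf1, 1.03 for Scd2 and 0.97 for Acsl3. Among Notch pathway genes it was -1.91 for Notch3, -1.57 for Dll3, -1.06 for Notch2, -0.75 for Notch1 and 0.80 for Dll1. Among matrix genes it was -1.65 for Fbn1, -1.58 for Col3a1, -1.55 for Col1a1 and 1.29 for Dcn. Among immune signal genes it was -1.10 for Cxcl10 and -1.05 for Nlrc5. Among retinoid handling and stress genes it was -3.17 for Lrat and -1.94 for Trib3, and outside the lists -2.39 for Crip3 and -1.68 for Plxnd1. For Sst the fitted value was 2.92, which rests on levels at or near 0 in Cre cTEC and is no measure of size. The calls of Sst, Hdc, Kitl, Ly75, Srebf1, Csn2, Nfkb2, Dll3, Krt7 and Krt10 did not hold without at least 1 of the libraries, as given with each gene. The groups held 3 libraries each, too few to look for single libraries that stand apart by a formal rule.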

How the results depend on the processing

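No paired analysis was run, because the library numbers run on through the 4 groups and no number is shared between groups. The numbers do not show whether mTEC and cTEC libraries came from the same animals, so a pairing may have gone unused. The Cre counts stayed within 1.5 times under every alternative run (3783 to 5088 higher and 3549 to 4758 lower in Cre mTEC with 1 library left out), and 148 of 152 named Cre calls held in each. Of 94 named calls of a change, 61 held in each. The number of genes changed toward mTEC was 299 with upper quartile scaling and 587 with voom, and that toward cTEC was 901 with DESeq2, 811 with voom and 861 with no filter. With DESeq2, 412 differences were smaller, 89 larger, 198 appeared and 346 were lost. With voom these were 457, 131, 203 and 500, with 107 opposite. With no filter, 108 were larger, 174 appeared and 388 were lost, and with length offsets 67 appeared. The share of changes toward mTEC was 19.9% with DESeq2's size factors and 42.0% with voom, against 27.0%. The cause of these moves was not tested. With each library left out in turn, changes toward mTEC numbered 90 to 562 and toward cTEC 275 to 1082; retained 5989 to 7284, smaller 164 to 388, larger 23 to 204, appearing 54 to 289, lost 92 to 560 and opposite 39 to 203. The highest of each of these came without library 11. TATAAA anywhere in the 50 bases before the start was in 2.46% of all promoters and 5.43% of those of genes higher in Cre mTEC. Values that changed sign had not passed the test: Nr1h3 ran from -0.30 to 0.0207 (without library 6). Cd74 was 0.0414 with upper quartile scaling, 0.0553 with library totals, 0.0043 with no filter and -0.17 to 0.0216 with 1 library left out. Cdsn was 2.59 with voom and -1.66 to 3.26 with 1 library left out, and Klk6 was 3.76 and -1.52 to 4.30; both turned without library 11.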
